A study of Mus musculus with 24 samples.

Results

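Cells sorted as Lin-CD29hiCD24+ from mouse mammary adenocarcinomas were compared with cells sorted through the same gate from normal mammary glands. The comparison rests on 8 of the 24 arrays of the series, chosen by their sample titles, with 5 tumour arrays (tumours A to E) and 3 normal arrays (gland pools F, G and H). All animals were C57BL6/J. The tumours came from Apc+/1572T mice, which carry 1 altered allele of the Wnt pathway regulator Apc beside a normal one, and the pools from Apc+/+ mice. The labels call the 5 tumours independent, call the 3 pools separately isolated, and give neither the age of the mice nor how many went into a pool. Each sample was 10000 sorted cells, whose RNA was amplified in a two-cycle labelling protocol and hybridised to an Affymetrix array. The question stated for the series is how normal and tumour cells of the gate used for stem cells differ in expression.

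The mammary duct has an inner layer of luminal cells, which make milk, and an outer layer of basal or myoepithelial cells, which contract on oxytocin, attach to the basement membrane through integrins, and include the cells able to rebuild a gland on transplantation. CD29, the integrin beta1 chain, and CD24, a surface glycoprotein, are used together to sort the basal layer (CD29 high) from the luminal one. APC is a scaffold of the complex that marks beta-catenin for destruction, so its loss raises Wnt signalling to the nucleus.

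Values below are log2 signals per gene, in which a step of 1 is a 2-fold step, and a difference is the tumour mean minus the normal mean with its standard error after the ± sign. A gene was called where limma gave a Benjamini-Hochberg adjusted p under 0.05 over 13485 genes tested. About 40 in 100 values of the series lie at or under 2.83, here called the low band, and differences that start there are compressed. Signals of different genes are not comparable as levels. In sorted bulk samples fewer cells of a type and less RNA per cell cannot be told apart.

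The arrays carried the keratin and Trp63 markers of the basal gate, and pool F, tumour C and tumour E stood apart most. Krt5, Krt14 and Trp63 had mean signals of 14.26, 14.67 and 13.20 in tumours and 12.86, 14.35 and 11.99 in pools. The Krt5 rise was not called without pool F (adjusted p = 0.0806). Of 15 basal gate markers tested 2 rose and 6 fell, with a median of -0.45 (1 and 6 without pool F). The mean over these markers was 10.16 to 11.47 in tumours and 12.88 to 13.17 in pools. The sort antigen Itgb1 (CD29) differed by 0.40 ± 0.34 (adjusted p = 0.39) and Cd24a (CD24) by -0.81 (means 13.55 and 14.37). The array of pool F had 47 genes more than 4 log2 units above both other pools, a leukocyte marker mean of 7.28 against 3.22 and 3.29, and an endothelial marker mean of 8.88 against 6.26 and 6.90. Its luminal marker mean was 7.57 against 10.33 and 10.39, and the tumours were at 6.89 to 8.54. Of 18 luminal markers tested 2 rose (11.1%) and 7 fell (38.9%), with a median of -2.04. Without pool F 2 rose and 10 fell, with a median of -3.37, so leaving out that pool widens this gap. Endothelial markers were at 3.34 to 3.99 in the 5 tumours, pericyte markers at 4.61 to 5.64 against 5.31 to 5.85 in the pools, and fibroblast markers at 5.15 to 6.13 against 6.10 to 7.02. The array of tumour C had 23 genes over 4 units above the other tumours, tumour A had 8, and tumour E had 17 genes over 3 units below the other tumours (pool G had 11 below the other pools, and pool F 46). Tumour E was the lowest tumour for 1388 of the 3094 genes called lower. Among the 2105 genes called higher it was lowest for 318, and tumours C (687) and D (632) were lowest more often. The actin 3' minus 5' signal, a sign of RNA shortening, was 1.66 to 2.47 in tumours and 2.20 to 2.89 in pools. The part of these features in the results was not tested. Counts are therefore given without pool F as well.

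Of the 13485 genes, 5199 were called (38.6%), 2105 higher in tumours (15.6%) and 3094 lower (22.9%), and the median difference over all genes was -0.01. Tumours and pools did not overlap for 4986 genes (37.0%). Without pool F 1689 were called higher (12.5%) and 2725 lower (20.2%), and 4194 of the 5199 kept their call and sign. After quantile normalisation the split turned to 2878 higher and 2493 lower, and the median of all genes moved to 0.06. Only tumour E has a description number in the range of the pools (82 to 95), and it lay beyond all 3 pools in the called direction for 4994 of the 5199 genes, a count that is no separate check because tumour E entered the test. The description-number block used below therefore sets the pools against the level of tumour E. A gene list is read below against the shares of 15.6% and 22.9%.

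**Figure D1:**
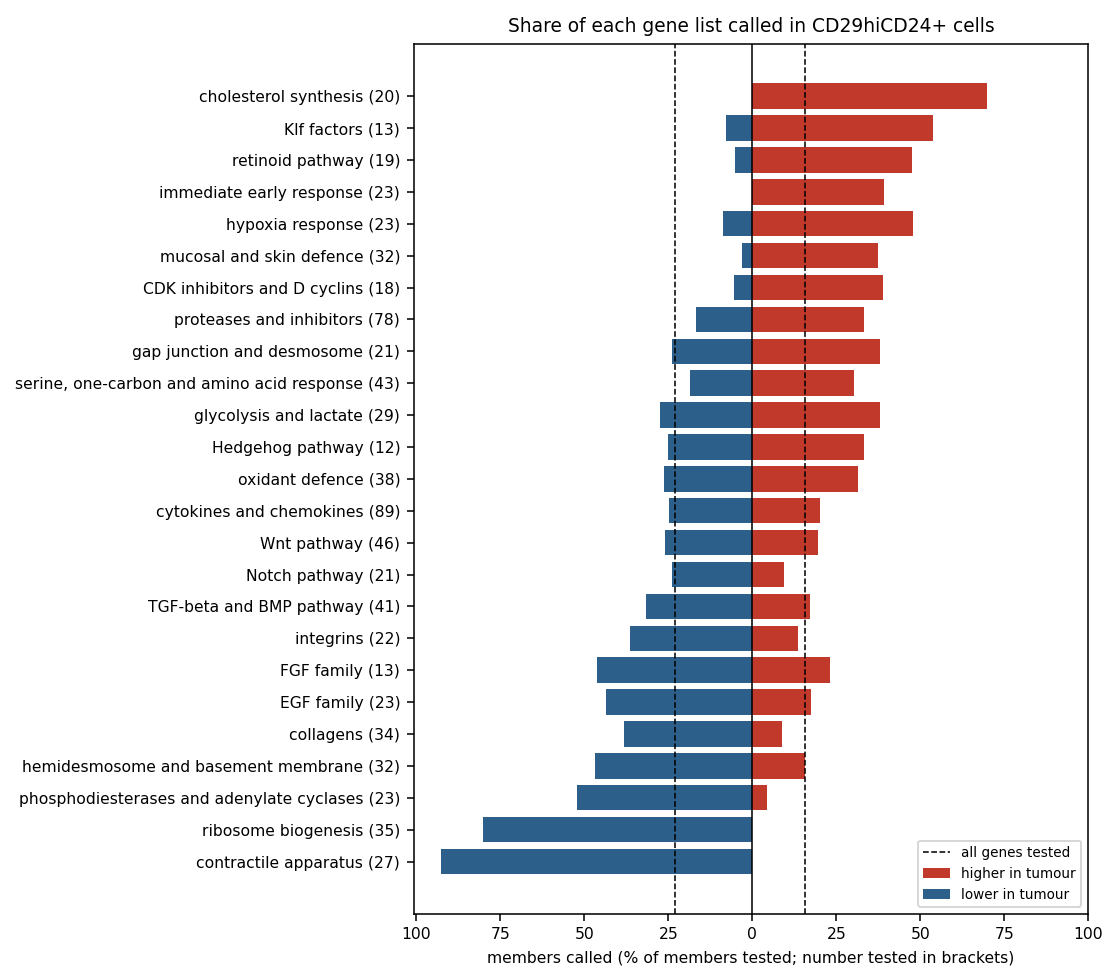
Members of each of 25 gene lists called higher (red, to the right) or lower (blue, to the left) in tumour CD29hiCD24+ cells, as a percentage of the members tested, with the number tested in brackets. The dashed lines mark the shares over all genes tested, 15.6% higher and 22.9% lower. Contractile and ribosome biogenesis genes lie at the lower end with 92.6% and 80.0% called lower, and cholesterol synthesis genes at the upper end with 70% called higher.

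Contractile genes, which let myoepithelial cells squeeze milk along the duct, were lower in tumours throughout the list. Of 27 members tested, of 30 listed, 0 rose and 25 fell, with a median difference of -3.67, and the same 0 and 24 without pool F. All 21 members tested that form the contractile machine itself fell. This list overlaps genes reported on earlier from these arrays, so its direction is not independent evidence. Contractile genes are also used by pericytes and vascular muscle, whose markers stand above, and their part in the result was not tested.

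The size of the difference varied between members. Myl9, the regulatory light chain of smooth muscle myosin, had log2 signals of 9.65, 8.56, 6.69, 7.59 and 6.83 in tumours A to E and 12.61, 12.54 and 12.82 in pools F to H. The tumours spread over about 3 log2 units, all of them below the pools (difference -4.79 ± 0.96, adjusted p = 0.000448). Srf, the serum response factor that binds CArG boxes in contractile genes, read 10.34, 9.99, 10.03, 10.57 and 10.65 in tumours and 11.29, 11.52 and 11.35 in pools. It was lower in every tumour but by a far smaller step, -1.07 ± 0.20, and its call was lost when the probe sets of a gene were averaged (adjusted p = 0.0875). Acta2, smooth muscle actin, stayed near the top of the scale in tumours, at 11.07 to 13.14, against 15.08 to 15.15 in pools (-2.76 ± 0.83). Synpo2, an actin-bundling protein of muscle, was in the low band in all 5 tumours, at 2.56 to 2.71, against 8.42 to 9.70 in pools (-6.28 ± 0.75). Tagln, an actin-binding marker of smooth muscle, read 9.07, 8.58, 8.39, 9.11 and 3.78 in tumours A to E and 14.001 to 14.11 in pools, so tumour E lay far under the other tumours. Mylk, the kinase that switches the myosin light chain on, showed the same pattern, with 4.48 in tumour E, 8.0 to 9.30 in the other tumours and 12.14 to 12.51 in pools. The cofactor Mrtfb fell by 0.59, a call lost without pool F (adjusted p = 0.136), and Mrtfa differed by -0.17 (adjusted p = 0.765).

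Oxtr, the oxytocin receptor through which these cells are told to contract, read 4.53, 4.19, 4.94, 7.09 and 2.51 in tumours and 11.48, 10.68 and 11.89 in pools (-6.70 ± 0.72, adjusted p = 3.34e-07). No tumour came within 2 log2 units of a pool. Actg2, the enteric smooth muscle actin, read 4.74, 3.73, 3.83, 4.64 and 3.28 in tumours and 10.66, 10.59 and 11.39 in pools (-6.84 ± 0.68, adjusted p = 1.31e-07).

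CArG boxes were looked for in RefSeq promoter windows (build GRCm38.p6, 250 bases before to 50 after a gene's start, both strands), because Srf binds them. They were found in 4 of the 24 contractile genes with a window (16.7%), against 1.81% of 27025 genes with one. The 4 were Myl9, Srf, Vcl and Acta1, of which Acta1 was not called. The stretches of the 3 called genes are shown 5′ to 3′ along the gene's strand, with the CArG box in capitals.
Myl9, chr2:156775273-156775342, plus strand, match at -161 from the start: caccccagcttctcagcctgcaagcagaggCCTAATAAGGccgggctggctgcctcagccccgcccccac
Srf, chr17:46556185-46556274, minus strand, matches at -82 and -62: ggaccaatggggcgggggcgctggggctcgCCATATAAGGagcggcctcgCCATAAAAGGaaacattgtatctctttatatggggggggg
Vcl, chr14:20929148-20929210, plus strand, match at -227: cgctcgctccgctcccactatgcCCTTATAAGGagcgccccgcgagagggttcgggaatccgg
Vcl, vinculin of focal adhesions, read 12.19 to 12.58 in tumours and 13.05 to 13.57 in pools (-0.93 ± 0.15). A match is a description of the letters and says nothing of binding in these cells.

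Phosphodiesterases and cyclases, which set cAMP and cGMP levels and with them muscle tone, were lower. Of 23 phosphodiesterases and cyclases tested 1 rose and 12 fell, with a median of -0.82 (-1.29 without pool H). Channel genes fell at shares near that of all genes, with 15 of 56 sodium, calcium and chloride channels (26.8%) and 9 of 41 potassium channels (22%). Gucy1b1, the beta subunit of the nitric oxide receptor guanylate cyclase, read 2.80, 2.89, 2.87, 2.73 and 2.92 in tumours A to E and 7.02, 6.47 and 7.32 in pools. It was at the edge of the low band in every tumour and far above it in every pool (-4.09 ± 0.26, adjusted p = 1.02e-10), and its partner Gucy1a1 fell by 2.63. Mrvi1, a substrate of cGMP-dependent kinase in muscle, fell by 6.51, with 3.27 to 4.14 in tumours against 9.73 to 10.37 in pools. Cacna1c, the pore of the L-type calcium channel, lay at 2.55 to 2.59 in tumours and at 5.45, 7.18 and 7.73 in pools (-4.21 ± 0.37). Both subunits of the large-conductance calcium-activated potassium channel, Kcnma1 (-3.56 ± 0.47) and Kcnmb1 (-3.67 ± 0.18), and the sodium channel gene Scn7a (-6.76 ± 0.96) fell. Adcy3, an adenylate cyclase, was the 1 member of the enzyme family that rose (1.65 ± 0.27). Ppp1r14c, an inhibitor of protein phosphatase 1, went from the low band in pools (2.38 to 2.40) to 9.81 to 10.47 in tumours, while the related smooth muscle inhibitor Ppp1r14a fell by 4.88.

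**Figure D2:**
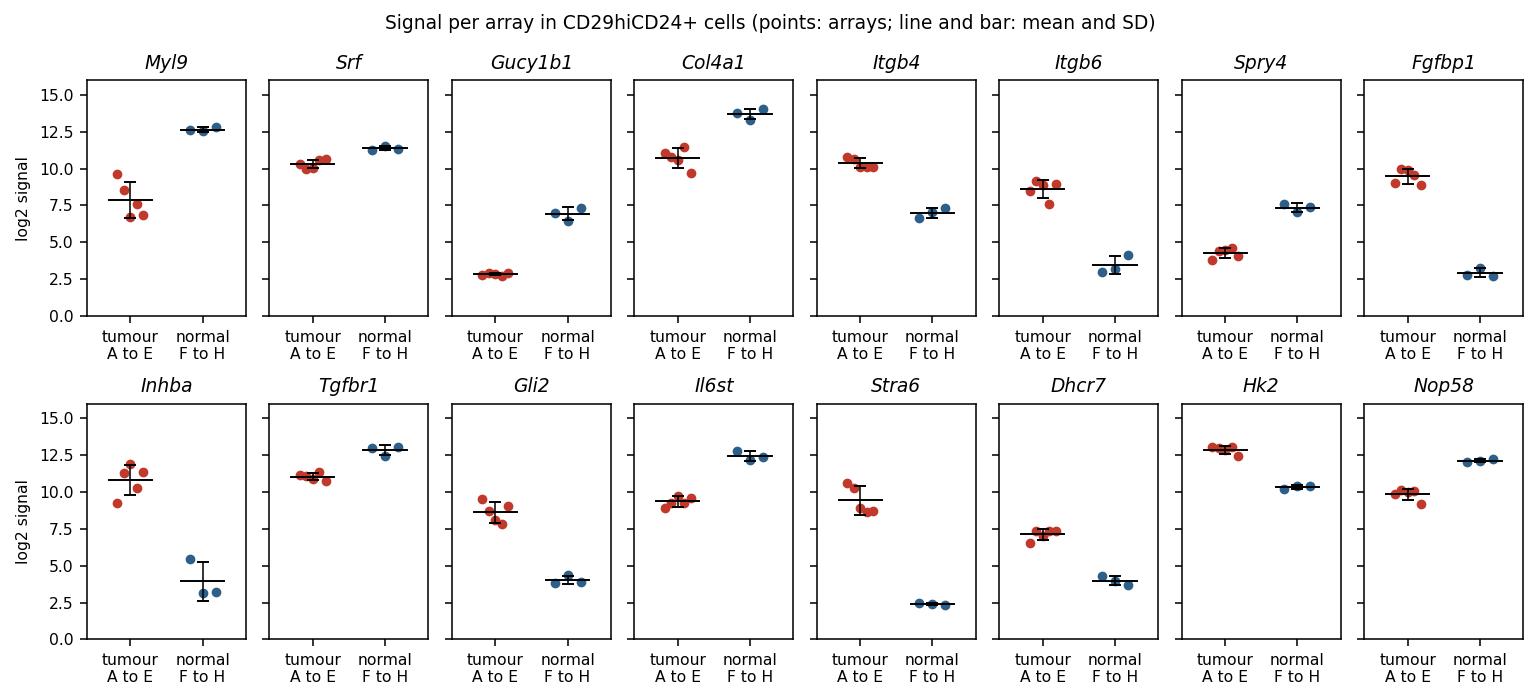
Log2 signal of 16 genes in each CD29hiCD24+ array (y axis), with tumours A to E in red and pools F to H in blue. Lines and bars give the group mean and SD. In none of the 16 genes do tumours and pools overlap, and Myl9 varies most among tumours of the genes that were lower.

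Adhesion to the basement membrane changed by component. Hemidesmosomes are the rivets that tie keratin filaments of basal cells to laminin. Of 6 hemidesmosome genes tested 3 rose and 1 fell, and of 21 basement membrane genes 2 rose and 12 fell (median -1.19). Itgb4, the integrin chain found in hemidesmosomes, read 10.82, 10.63, 10.13, 10.10 and 10.14 in tumours and 6.63, 7.06 and 7.32 in pools. All 5 tumours lay about 3 log2 units above the pools (3.36 ± 0.33, adjusted p = 1.16e-07), and the partner chain Itga6 differed by -0.27 ± 0.12 (adjusted p = 0.071). Col17a1 (1.42 ± 0.44), the transmembrane collagen of the same structure, and Lamb3 (1.01 ± 0.30), a chain of its laminin ligand, rose as well. Of the other laminin chains Lama4 rose (1.68 ± 0.26), and Lama1 (-2.91), Lamc1 (-2.46), Lamb2 (-1.65), Lamb1 (-1.36) and Lama5 (-1.19) fell. Col4a1, a chain of the collagen IV network, read 11.09, 10.79, 10.56, 11.44 and 9.70 in tumours and 13.77, 13.33 and 14.02 in pools. Every tumour was lower (-2.99 ± 0.58), and Col4a2 (-3.01 ± 0.61), Col4a6 (-3.36 ± 0.36) and the linker Nid1 (-4.63 ± 0.92) fell with it. Endothelial cells make collagen IV and nidogen too, and their marker mean was 6.26 to 8.88 in pools and at most 3.99 in tumours. The part of those cells was not tested.

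Integrin chains changed in both directions. Of 22 tested 3 rose and 8 fell (without pool F 2 and 9). Itgb6, which pairs with the alpha v chain to activate latent TGF-beta in epithelia, read 8.47, 9.14, 8.87, 7.58 and 8.99 in tumours and 3.01, 3.19 and 4.14 in pools. The groups were over 3 log2 units apart (5.16 ± 0.63, adjusted p = 1.95e-06). Itga9, a tenascin receptor chain, fell from 7.88 to 8.67 in pools to 2.74 to 3.10 in tumours (-5.16 ± 0.61). Itga1 (-4.64 ± 0.37), a collagen receptor chain, and Itgb3 (-4.78 ± 0.75), a vitronectin receptor chain also found on endothelium and platelets, fell to the low band or close to it in all tumours. Among collagens 3 of 34 rose and 13 fell, with a median of -1.39, and Col14a1, a fibril-associated collagen, fell most (-6.29 ± 1.16), with 2.71 in tumour E against 6.62 to 8.83 in the other tumours.

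Connexins and desmosomal genes changed in both directions. Of 21 gap junction and desmosome genes 8 rose and 5 fell, also without pool F. Gjb2, connexin 26, read 10.97, 11.28, 12.30, 11.86 and 12.22 in tumours and 4.14, 4.03 and 4.38 in pools (7.54 ± 0.41, adjusted p = 1.09e-11). It was among the highest differences of all genes, and its neighbours in the family Gjb6 (3.16 ± 0.60) and Gjb5 (3.11) rose too. Gja1, connexin 43, the main connexin of myoepithelial cells, was at 14.68 to 14.90 in tumours and 14.77 to 14.93 in pools, a difference of -0.08 ± 0.15 that changed sign with averaged probe sets or the actin covariate. Dsc3, a desmosomal cadherin of basal keratinocytes, rose by 6.26 ± 0.44 and the envelope plakin Evpl by 4.49 ± 0.39. Gjc1, connexin 45, and the plakophilin Pkp2 fell by 3.41 and 2.90, and the Gjc1 call did not hold without pool F (adjusted p = 0.0514). Pkp2 overlapped between tumour C (6.94) and pool F (6.88), and its call was lost without pool G (0.117), pool H (0.0786) or tumour D (0.056).

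Feedback inhibitors of growth factor signalling were mostly lower. EGF and FGF receptors are tyrosine kinases that drive the ERK pathway, and ERK in turn induces Sprouty, Spred and Dusp genes, which damp it. Of 12 inhibitors and feedback genes in the EGF list 1 rose and 8 fell (0 and 6 without pool F), with a median of -1.20. Spry4 read 3.79, 4.44, 4.46, 4.59 and 4.05 in tumours and 7.61, 7.03 and 7.39 in pools. Each tumour was under each pool by at least 2 log2 units (-3.08 ± 0.37, adjusted p = 1.31e-06), and Spry1 (-2.23 ± 0.34) and Errfi1 (-1.20 ± 0.18), an inhibitor that binds the EGF receptor kinase, fell too. Dusp5, an ERK phosphatase, fell by 1.48 ± 0.43, a call lost without pool F (adjusted p = 0.0698), while Dusp4 rose by 1.02, also lost without pool F (0.161). Egfr itself differed by -0.12 ± 0.34 (adjusted p = 0.811), a sign that turned after quantile normalisation, and Erbb3, the neuregulin receptor, rose by 2.04 ± 0.27. Among ligands Ereg, epiregulin, read 6.16, 7.96, 8.04, 7.37 and 5.45 in tumours and 10.24, 10.76 and 11.15 in pools. It was lower in all tumours (-3.72 ± 0.66), while Hbegf rose by 1.73 ± 0.46 with overlap between tumour E (10.83) and pool F (11.01). With the description-number block the Hbegf difference was 0.56 (adjusted p = 0.102).

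In the FGF list 4 of 5 receptors fell and 1 rose. Fgfr2, a receptor of mammary epithelium, fell by 1.27 ± 0.16, Fgfr4 by 1.81 ± 0.25 and Fgfr1 by 0.94 ± 0.33, and Fgfr3 rose by 0.79 ± 0.25. The Fgfr1 call was lost after quantile normalisation (adjusted p = 0.0817), with averaged probe sets (0.238), and without pool G (0.112), pool H (0.0548) or tumour E (0.0724). The Fgfr3 call was lost without pool G (0.0628) or pool H (0.0609). Fgfbp1, a secreted carrier that frees FGFs from heparan sulphate, read 9.0, 9.9998, 9.91, 9.59 and 8.87 in tumours and 2.81, 3.28 and 2.71 in pools. It lay near the low band in all pools and high in all tumours (6.54 ± 0.41, adjusted p = 1.2e-10), and the ligand Fgf1 fell by 2.80 ± 0.65.

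Ligands and receptors of the TGF-beta and BMP pathway moved in opposite directions. These ligands bind paired serine/threonine kinase receptors that phosphorylate SMAD factors. Of 14 ligand genes tested 5 rose and 0 fell, of 11 receptors 0 rose and 7 fell, and of 11 inhibitors and latency proteins 0 rose and 5 fell. Inhba, which encodes the subunit of activin A, read 9.29, 11.29, 11.91, 10.30 and 11.34 in tumours and 5.48, 3.15 and 3.20 in pools. The lowest tumour was almost 4 log2 units above the highest pool (6.88 ± 0.75, adjusted p = 4.19e-07). Bmp2 read 10.83, 11.45, 11.43, 11.91 and 11.63 in tumours and 7.67, 6.29 and 5.15 in pools (5.08 ± 0.44), and Inhbb (1.90 ± 0.60), Tgfb1 (1.86) and Tgfb2 (0.93) rose as well. The Inhbb call was lost without pool F (adjusted p = 0.055). Tgfbr1, the type I TGF-beta receptor, read 11.15, 11.11, 10.91, 11.35 and 10.73 in tumours and 12.97, 12.48 and 13.09 in pools. The tumours were tightly grouped under the pools (-1.80 ± 0.22, adjusted p = 2.24e-06), and the co-receptor Tgfbr3 (-3.15 ± 0.51) and the BMP receptor Bmpr1a (-0.94 ± 0.21) fell as well. With averaged probe sets Bmpr1a differed by -0.42 (adjusted p = 0.0759). Acvrl1 and Eng, both receptors of endothelium, were among the 7 that fell, and Eng was not called without pool F (adjusted p = 0.0635). Ltbp2, a matrix protein of the family that binds latent TGF-beta, fell by 6.82 ± 1.12 and read 2.74 in tumour E and 5.08 to 8.34 in the other tumours. Of the targets listed, Tgfbi rose by 4.56 ± 0.61 and Id1 by 2.11 ± 0.54.

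Hedgehog genes changed in both directions. Shh binds Ptch1, which releases Smo and through it the Gli factors, and Ptch1 and Gli1 are themselves targets. Of 12 genes tested 4 rose and 3 fell, with a median of 0.02 that lay between -0.09 and 0.11 with 1 array left out. Gli2 read 9.53, 8.68, 8.08, 7.81 and 9.02 in tumours and 3.83, 4.35 and 3.87 in pools. The groups were over 3 log2 units apart (4.61 ± 0.43, adjusted p = 5.48e-08). Shh read 7.57, 7.63, 6.51, 7.71 and 7.05 in tumours and 3.33, 5.55 and 4.2048 in pools (2.93 ± 0.61), and Ptch1 rose by 2.51 ± 0.41 and Gli1 by 2.33 ± 0.40. The co-receptors Gas1 (-1.68 ± 0.32) and Boc (-1.30 ± 0.33) fell, and Smo differed by 0.42 ± 0.23 (adjusted p = 0.156), called after quantile normalisation (0.0234).

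Wnt pathway genes changed in both directions. Of 46 tested 9 rose (19.6%) and 12 fell (26.1%), near the shares of all genes, with a median of -0.03. Without pool F 8 rose and 7 fell. Of 17 receptors tested 1 rose and 8 fell (1 and 4 without pool F), of 10 ligands 2 rose and 0 fell (1 and 0 without pool F), and of 19 inhibitors and feedback genes 6 rose and 4 fell. Ror2, a receptor for the ligand Wnt5a, read 8.87, 8.23, 7.57, 7.80 and 7.90 in tumours and 5.27, 5.52 and 4.85 in pools. It rose by 2.86 ± 0.40 (adjusted p = 1.1e-05) while its paralog Ror1 fell by 2.36 ± 0.52, and Wnt5a itself rose by 1.67 ± 0.39. Lrp6, the co-receptor that starts beta-catenin signalling, fell by 2.38 ± 0.30 and Lgr5, an R-spondin receptor and stem cell marker of several tissues, by 2.24 ± 0.55. Wnt7b rose by 2.19 ± 0.66, a call lost without pool F (adjusted p = 0.0994). Sostdc1, a secreted antagonist of Wnt and BMP, rose by 3.77 ± 0.63, and Nkd1 (-2.50 ± 0.22) and Sfrp2 (-2.50 ± 0.50) fell. Apc, the gene altered in these mice, read 10.94, 10.37, 10.94, 10.91 and 8.06 in tumours and 11.53, 11.72 and 11.71 in pools. All tumours were below all pools, tumour E most (-1.41 ± 0.56, adjusted p = 0.0538), and the gene was called with the letter of the sample as a replicate block (adjusted p = 0.022). With the description-number block, which sets the pools against tumour E, the Apc difference was -3.04. With averaged probe sets it was -0.94 (adjusted p = 0.0414). Apc was also called without tumour A, C or D (0.0405 to 0.041), and not without pool F (0.0977). The array does not tell the altered from the normal allele.

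In the Notch list 2 of 21 genes rose (9.52%) and 5 fell (23.8%), the latter near the share of all genes. Notch1 rose by 1.65 ± 0.34 and the ligand Dll1 fell from 11.72 to 12.02 in pools to 7.77 to 9.75 in tumours (-3.0 ± 0.47). Rbpj, the DNA-binding partner of the receptors, fell by 1.23 ± 0.25 and the target Hey1 by 2.21 ± 0.47, the latter with 3.24 in tumour D and 1.90 to 2.04 in the other tumours.

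Cytokine and growth factor genes changed in both directions. Of 89 cytokine and growth factor genes tested 18 rose and 22 fell, near the shares of all genes. Il1a, an alarm cytokine of keratinocytes, read 8.25, 10.33, 10.45, 9.25 and 9.13 in tumours and 6.43, 3.03 and 2.44 in pools. Every tumour was above every pool (5.51 ± 0.73, adjusted p = 5.63e-06), and Il1rn, the antagonist of the same receptor, rose by 5.77 ± 0.55 and Tnf by 3.53 ± 0.36. Il6st, the gp130 chain shared by receptors of the Il6 family, read 8.89, 9.27, 9.76, 9.26 and 9.62 in tumours and 12.81, 12.17 and 12.40 in pools. It was lower by 3.10 ± 0.27 (adjusted p = 2.09e-08) with over 2 log2 units between the groups. Its partners Lifr (-4.06 ± 0.38) and Osmr (-2.20 ± 0.29) and the ligand Il6 (-3.25 ± 0.78) fell too. Cxcl12, a chemokine of stroma and basal cells, read 5.0, 6.02, 5.38, 6.20 and 2.86 in tumours and 11.71, 11.91 and 12.16 in pools (-6.84 ± 1.04). Cxcl14 fell by 4.92 ± 0.71, and Cxcl5 (3.54 ± 1.27) and Cxcl3 (3.38 ± 1.04), which attract neutrophils, rose with wide spread. The Cxcl5 call was lost without pool F (adjusted p = 0.0946), pool G (0.0891) or tumour A, B or C (0.0536 to 0.0758). The Cxcl3 call was lost without pool G (0.0539) or pool H (0.11) and with the description-number block (0.0942). Mst1, macrophage-stimulating protein, and its receptor Mst1r rose together, by 4.57 ± 0.25 and 4.25 ± 0.49, from 2.79 to 2.85 and from 2.31 to 2.37 in pools. Edn2, endothelin 2, rose by 5.60 ± 0.55, and Csf1, which supports macrophages, fell by 3.69 ± 0.61, as did the growth factors Igf2 (-4.41 ± 0.33) and Pdgfd (-3.94 ± 0.64).

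Of 111 genes of G protein-coupled receptor families 11 rose (9.91%) and 30 fell (27.0%). The 4 with the highest differences bind lysophosphatidic acid or sphingosine-1-phosphate, lipid mediators of wound repair. Lpar1 read 8.45, 8.23, 7.99, 8.28 and 7.28 in tumours and 4.09, 2.43 and 4.57 in pools (4.35 ± 0.60, adjusted p = 8.81e-06). S1pr3 (4.03 ± 0.79), S1pr5 (3.67 ± 0.48) and Lpar3 (3.299 ± 0.44) rose likewise, and no tumour overlapped a pool for any of them. Agtr1a, an angiotensin receptor of muscle and pericytes, fell by 4.71 ± 1.05, and S1pr1, the form of the receptor found on endothelium, by 3.40, and so did Lpar6, another lysophosphatidic acid receptor (-1.66).

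Vitamin A handling was higher. Retinol enters cells through STRA6, is oxidised to retinoic acid, binds CRABP2 and nuclear RAR receptors, and is cleared by CYP26 enzymes. Of 19 members tested, of 24 listed, 9 rose and 1 fell, with a median of 0.87 (8 and 1 without pool F). Stra6 read 10.63, 10.30, 8.92, 8.63 and 8.68 in tumours and 2.45, 2.42 and 2.33 in pools. It was in the low band in every pool and well above it in every tumour, highest in A and B (7.03 ± 0.60, adjusted p = 1.3e-08). Cyp26a1, the clearing enzyme and a target of retinoic acid, read 9.87, 9.08, 6.09, 8.05 and 5.52 in tumours and 2.19 to 2.42 in pools (5.45 ± 1.02). Rdh12, a retinal reductase, rose by 3.55 ± 0.38, Crabp2 by 2.92 ± 0.42 and Rarg by 1.71 ± 0.25. Aldh1a1, which makes retinoic acid, rose by 1.96 ± 0.64, a call lost with the description-number block (adjusted p = 0.243) and without pool G (0.0672).

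Cholesterol synthesis genes rose. Of 20 enzymes and regulators tested, of 25 listed, 14 rose (70%) and 0 fell, with a median of 1.11, and 10 rose and 0 fell without pool F. Among the 25 lists plotted this was the largest share called higher, but without pool F the hypoxia list had 13 of 23. Dhcr7, the last enzyme of the pathway, read 6.51, 7.38, 7.0, 7.35 and 7.37 in tumours and 4.33, 3.93 and 3.72 in pools (3.13 ± 0.26, adjusted p = 9.51e-09). Lss, which closes the sterol rings, rose by 2.49 ± 0.36 and Fdps, which makes farnesyl diphosphate, by 2.20 ± 0.42. Tumour A was lowest of the 5 for Fdps (6.81 against 7.67 to 7.78) and for the list mean (8.01). Srebf2, the transcription factor of the pathway, rose by 0.99 ± 0.25. Sqle, the squalene epoxidase at a control point of the pathway, differed by 0.27 ± 0.25 (adjusted p = 0.431), and Hmgcs1, the synthase at its start, rose by 1.07 ± 0.24, a call lost with averaged probe sets (adjusted p = 0.205). The sterol regulatory element TCACNCCAC was found in the promoter window of 1 of 16 members, Hmgcs1 (6.2%), against 1.44% of all genes.

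Lipid genes outside that pathway split by use. Among 16 fatty acid synthesis genes 7 rose and 3 fell, with the desaturases Scd1 (2.35 ± 0.29) and Scd2 (1.83 ± 0.40) highest, and among 21 genes of uptake, storage and breakdown 2 rose and 8 fell. Fabp4, a fatty acid carrier, read 8.89, 9.14, 9.998, 9.76 and 5.71 in tumours and 15.06, 14.51 and 14.63 in pools (-6.03 ± 1.23). Cd36, a fatty acid importer, fell by 5.94 ± 0.62 and Pparg, the nuclear receptor of fat storage, by 3.31 ± 0.54, while its relative Ppard rose by 2.0 ± 0.51. Fabp4 and Cd36 are used by capillary endothelium and Fabp4 and Pparg by fat cells. The adipocyte marker mean was 3.78 to 4.41 in tumours and 5.34 to 5.91 in pools, and the part of those cells was not tested.

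**Figure D3:**
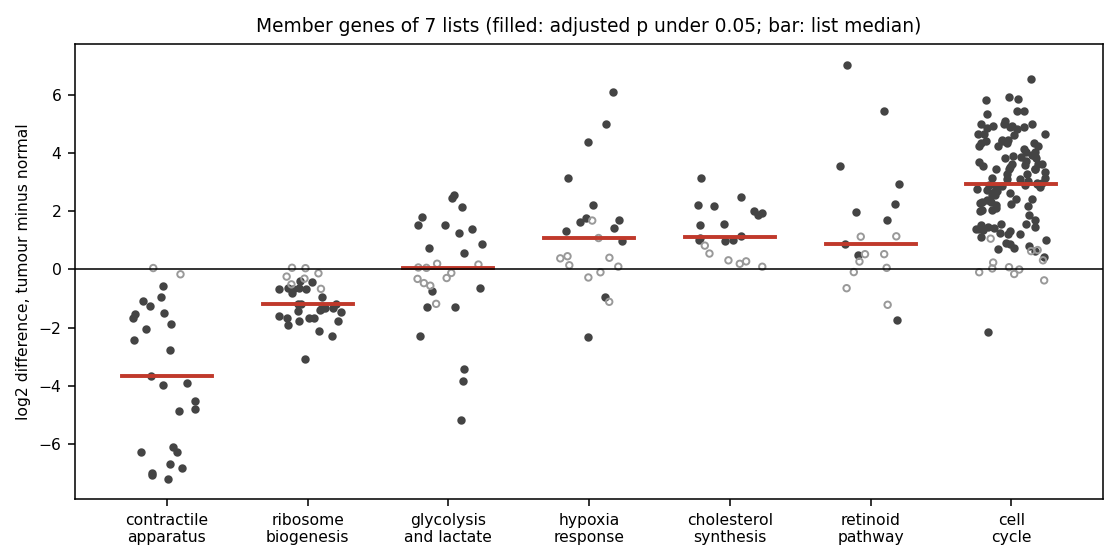
Log2 difference, tumour minus normal, of each member of 7 gene lists (y axis). Filled points were called, open points were not, and red bars are list medians, from -3.67 for contractile genes to 2.93 for cell cycle genes. Ribosome biogenesis genes lie almost wholly below 0 (median -1.18) while cell cycle genes lie above it.

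Enzymes and transporters of glucose metabolism changed in both directions. Glycolysis turns glucose into pyruvate, PDK enzymes keep pyruvate out of the mitochondria, and lactate leaves through SLC16A3. Of 29 members tested 11 rose and 8 fell, with a median of 0.05, which was -0.0088 without tumour A and 0.0009 without tumour D. Hk2, the inducible hexokinase, read 13.09, 12.96, 12.87, 13.07 and 12.42 in tumours and 10.19, 10.44 and 10.39 in pools (2.54 ± 0.18, adjusted p = 5.79e-10). Pdk1 (2.46 ± 0.19) and Tpi1 (2.12 ± 0.16) rose as evenly, and Pdk4, the kinase of the same family used in fasting, fell by 5.16 ± 0.78. The transporters Slc2a3 (-3.85 ± 0.63) and Slc16a7 (-3.41 ± 0.30) and the regulator Pfkfb3 (-2.29 ± 0.44) fell. Slc2a1, the main glucose transporter, stayed at 13.79 to 14.33 in tumours against 14.03 to 14.47 in pools (-0.12 ± 0.21), and Ldha differed by 0.06 ± 0.17. The signs of both turned under some settings.

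Oxygen-responsive genes rose. Cells short of oxygen keep HIF1A, a transcription factor that binds ACGTG, and PHD enzymes such as Egln3 mark it for removal. Of 23 members tested, of 25 listed, 11 rose and 2 fell, with a median of 1.08, and 13 and 2 without pool F. A list of this kind was reported on earlier from these arrays, so the direction is no independent evidence. Car9, a carbonic anhydrase of the cell surface, read 8.27, 6.43, 8.54, 7.83 and 8.57 in tumours and 3.80, 3.65 and 3.22 in pools (4.37 ± 0.59, adjusted p = 6.02e-06). Bnip3, a mitophagy receptor, read 11.75, 10.27, 11.46, 11.31 and 11.44 in tumours and 7.99, 7.67 and 8.65 in pools (3.14 ± 0.41), and Egln3 rose by 2.20 ± 0.45. Tumour B was lowest of the 5 for all 3 genes. Car12, another surface carbonic anhydrase, read 12.16 to 12.78 in tumours and 5.96 to 6.87 in pools (6.07 ± 0.26). Epas1, which encodes HIF2A and is high in endothelium, fell by 2.33 ± 0.31, and Vegfa, the target that draws vessels, differed by -0.10 ± 0.34, a sign that turned under other settings. Hif1a differed by 0.40 ± 0.19 (adjusted p = 0.104) and was called after quantile normalisation (0.0193).

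The letters ACGTG stood in the promoter window of 15 of 18 members with a window (83.3%) and of 21.78% of all genes. Of the 15, 9 were called, 8 of them higher and Hilpda lower, the latter not called without pool G (adjusted p = 0.0796). The 3 of these 9 with the highest differences are shown, with the motif on either strand in capitals.
Car9, chr4:43506978-43507042, plus strand, match at -18: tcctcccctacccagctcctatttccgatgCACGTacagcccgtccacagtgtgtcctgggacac
Bnip3, chr7:138909579-138909644, minus strand, matches at -108 and -107 that overlap: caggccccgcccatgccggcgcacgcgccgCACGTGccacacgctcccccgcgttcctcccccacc
Egln3, chr12:54204069-54204124, minus strand, match at -229: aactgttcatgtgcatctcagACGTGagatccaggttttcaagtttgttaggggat
The overlapping matches of Bnip3 form the palindrome CACGTG, which is also an E-box. The list holds genes known as HIF targets, so the share is no independent evidence.

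Genes that build ribosomes fell while cell cycle genes rose. Ribosome assembly takes place in the nucleolus, needs RNA polymerase I and a set of processing factors, and is a known task of Myc. Of 35 such genes tested, of 36 listed, 0 rose and 28 fell (80.0%), with a median of -1.18, and 0 and 27 without pool F. Of 125 cell cycle genes 113 rose and 1 fell. Nop58, a core protein of snoRNA particles, read 9.87, 10.16, 9.97, 10.07 and 9.22 in tumours and 12.04, 12.09 and 12.27 in pools. The tumours formed a narrow band about 2 log2 units under the pools (-2.28 ± 0.24, adjusted p = 2.27e-07). Rrp1b, an rRNA processing factor, fell by 3.08 ± 0.33, the polymerase I subunit Polr1b by 1.68 ± 0.24 and the abundant nucleolar protein Ncl by 0.66 ± 0.16. Npm1, nucleophosmin, fell by 0.41 ± 0.14, a call lost with only the 8 arrays fitted (adjusted p = 0.0947) and without pool G (0.0828), pool H (0.0519), tumour C (0.0509) or tumour E (0.0579). Myc read 10.15, 10.31, 9.44, 10.40 and 8.06 in tumours and 11.73 to 11.84 in pools (-2.13 ± 0.44). The structural proteins of the ribosome did not follow, as 3 of 41 rose and 3 fell, with a median of -0.08. In the CD29+CD24+ gate the ribosome biogenesis list went the other way, with 17 of 35 higher in tumours and 1 lower. Over all genes 16.4% were called higher and 27.1% lower in that gate. The test of the difference between gates called 29 of the 35 lower in the CD29hiCD24+ gate and 0 higher. In that test 19.8% of all genes were called lower.

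Regulators at the start of the cell cycle rose with the cycle itself, brakes included. Of 18 CDK inhibitors, D cyclins and their partners 7 rose and 1, Myc, fell. Cdkn2b, the p15 inhibitor induced by TGF-beta, read 10.10, 10.86, 8.71, 9.32 and 9.96 in tumours and 4.91, 5.90 and 5.0 in pools (4.52 ± 0.48, adjusted p = 3.29e-07). Its target kinase Cdk6 rose by 3.35 ± 0.27, the inhibitor Cdkn2c (p18) by 2.14 ± 0.41 and Ccnd1, cyclin D1, by 1.23 ± 0.26. Cdkn1a, the p21 inhibitor, rose by 0.80 ± 0.17, with 14.19 in tumour D against 13.50 to 13.62 in the other tumours. Among p53 and apoptosis genes Pmaip1 (3.89 ± 0.54), which encodes the killer protein NOXA, rose most, and Birc2 (-2.89 ± 0.27), an inhibitor of apoptosis, fell most.

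Antioxidant enzymes changed by isoform. Of 38 genes 12 rose and 10 fell, with a median of 0.07, which was 0.12 without tumour C and 0.0013 without tumour E. Gpx2, an epithelial glutathione peroxidase, read 12.81, 12.20, 11.11, 11.91 and 11.42 in tumours and 6.32, 6.25 and 5.80 in pools (5.77 ± 0.35, adjusted p = 7.61e-11), and the plasma form Gpx3 fell by 3.95 ± 1.28. Tumour A (7.10) overlapped pool F (6.48) for Gpx3, and the call was lost without pool G (adjusted p = 0.073) or pool H (0.108). Gsta4, a transferase for lipid peroxidation products, rose by 5.86 ± 0.38 while Gstt1 fell by 5.51 ± 0.61. Gclm (-1.37 ± 0.34), the modifier subunit of the enzyme that limits glutathione synthesis, and the regulator Nfe2l2 (-0.79 ± 0.20) fell. With averaged probe sets Nfe2l2 differed by -0.54 (adjusted p = 0.136). The catalytic subunit Gclc fell by 1.24 ± 0.47, a call lost without pool F (adjusted p = 0.0977), pool G (0.218) or tumour A, C or E (0.0644 to 0.116). The antioxidant response element TGACNNNGC was found in 9 of 31 windows (29.0%) against 13.99% of all genes, and of the 5 called genes with it Gclm, Nfe2l2 and Txnrd1 fell and Pgd and Abcc4 rose. The Txnrd1 call was lost without pool F (adjusted p = 0.0896).

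Serine and folate enzymes were among the amino acid genes that rose. Of 43 genes 13 rose and 8 fell, with a median of 0.15, which was 0.024 without pool H and 0.23 without tumour A. Phgdh, which starts serine synthesis, rose by 1.11 ± 0.21, Shmt2, which passes serine carbon to folate in mitochondria, by 1.14 ± 0.20, and Mthfd1l, of the same folate route, by 2.83 ± 0.27. Slc6a14, a broad amino acid importer, went from 3.16 to 3.35 in pools to 6.56, 8.97, 9.95, 8.02 and 8.58 in tumours (5.17 ± 0.55). Slc1a5, the glutamine importer, fell by 2.03 ± 0.35 and Gpt2, a mitochondrial alanine transaminase, by 3.0 ± 0.44. Over all 266 solute carriers tested 53 rose (19.9%) and 56 fell (21.1%), near the shares of all genes.

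Secreted proteases and protease inhibitors included genes with large rises. Of 48 extracellular proteases 17 rose and 8 fell, and of 30 inhibitors 9 rose and 5 fell. Mmp13, a collagenase, read 7.05, 11.33, 13.29, 10.93 and 11.68 in tumours and 3.18, 2.75 and 2.65 in pools. Tumour A was far below the other tumours but above all pools (7.99 ± 1.10, adjusted p = 7.9e-06). Mmp10, stromelysin 2, was also lowest in tumour A, with 4.59 there and 8.38 to 10.11 in the others (5.57 ± 1.03), and Mmp9 rose by 5.33 ± 1.02. Serpinb2, an inhibitor of plasminogen activators, read 10.80, 13.92, 13.74, 11.84 and 12.73 in tumours and 3.12, 2.79 and 9.11 in pools, so pool H was high (7.60 ± 1.04). Stfa3, a stefin that blocks cathepsins, rose by 7.09 ± 1.11 and Csta1 by 4.87 ± 0.73. Mmp2, a gelatinase of stroma and basal cells, fell by 3.42 ± 0.46, Reck, a membrane inhibitor of MMPs, by 3.07 ± 0.49 and Timp2 by 1.83 ± 0.37.

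The AP-1 site, TGAGTCA or TGACTCA, was found in the windows of 11 of 58 proteases and inhibitors (19%) and in 5.95% of all genes. Of the 11, 6 were called, 5 higher and Prss23 lower. The 3 of these 6 with the highest differences are shown, with the site in capitals.
Mmp13, chr9:7272449-7272515, plus strand, match at -35: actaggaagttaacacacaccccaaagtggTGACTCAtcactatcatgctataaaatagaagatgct
Stfa3, chr16:36455343-36455393, minus strand, match at 30 after the start: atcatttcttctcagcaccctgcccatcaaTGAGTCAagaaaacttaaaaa
Mmp10, chr9:7502249-7502315, plus strand, match at -63: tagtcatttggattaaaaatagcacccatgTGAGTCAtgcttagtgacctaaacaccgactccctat
Mmp3, Mmp7, Mmp12, Adam19 and Plaur, which hold a site as well, were not called. The members were chosen with earlier results of these data known, so the share with a site is no independent evidence. Stefin genes have close copies, so the probe set of Stfa3 may also read others. Among immediate early genes, which include the AP-1 subunits, 9 of 23 rose and 0 fell, with Fosb at 1.96 and Jun at 0.96, the latter not called without pool F (adjusted p = 0.103). With the description-number block 7 rose and 3 fell, and the list median went from 0.42 to 0.13. Without pool G the median was 0.24. Tissue dissociation is known to induce such genes, and its part was not tested.

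Surface defence genes of skin and mucosa rose, with 12 of 32 higher and 1 lower. Ptgs2, cyclooxygenase 2, read 13.34, 14.43, 14.24, 14.02 and 13.03 in tumours and 9.40, 9.02 and 10.04 in pools (4.33 ± 0.47, adjusted p = 4.12e-07). Defb1, a constitutive defensin, rose by 4.29 ± 0.53, Duox1, an oxidase of the cell surface, by 3.86 ± 0.45 and S100a14 by 4.61 ± 0.42.

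Several transcription factors of epidermis and hair follicle rose. Of 32 hair placode and follicle genes 10 rose and 4 fell, and of 13 Klf factors 7 rose and 1 fell (4 rose without pool G). Runx3 read 9.83, 8.82, 7.64, 9.01 and 8.37 in tumours and 2.66, 2.64 and 2.36 in pools (6.18 ± 0.57, adjusted p = 3.57e-08). Ovol1, which drives keratinocytes out of the cell cycle, rose by 5.64 ± 0.48, with 9.60 in tumour A and 10.22 to 10.40 in the others. Foxq1, a forkhead factor of the hair shaft, rose by 5.20 ± 0.27, the hair factor Sox21 by 2.71 ± 0.30 and Klf5 by 1.68 ± 0.27. Pou3f3 left the low band in tumours with a wide spread, at 5.30, 5.94, 8.23, 9.50 and 8.09 against 2.62 to 2.69 in pools (4.77 ± 1.03). Trp63, the master factor of basal cells, rose by 1.21 ± 0.33, and by 0.65 with averaged probe sets (adjusted p = 0.0524, not called). Satb1, a chromatin organiser, fell by 3.82 ± 0.78, Sox4 by 1.62 ± 0.45 and Edaradd, the adaptor of the ectodysplasin receptor, by 4.29 ± 0.91. Of 12 Hox genes tested 0 rose and 1 fell.

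Ranks 11 to 25 by size in each direction held further genes. Cwh43, which remodels the lipid part of GPI anchors, read 11.16, 10.69, 10.72, 10.81 and 10.18 in tumours and 2.46 to 2.73 in pools (8.10 ± 0.35). Anxa8, an annexin of stratified epithelium, read 13.25 to 13.86 in tumours and 5.83, 7.36 and 5.58 in pools (7.32 ± 0.36). Tmem178 (7.60 ± 0.34), Mab21l3 (7.0 ± 0.52), Nt5dc2 (6.96 ± 0.38) and the cholesterol sulphotransferase Sult2b1 (6.94 ± 0.62) followed. Among genes with both means over 6, Slco4a1, an organic anion transporter, rose by 4.70 ± 0.47 and the interferon-induced Ifi27l2a by 4.84 ± 0.85, with pool F at 8.64 against 4.65 and 5.01. Ranks 11 to 25 at the lower end held the small leucine-rich proteoglycan Fmod (-6.77 ± 1.10), the amine oxidase Aoc3 (-6.81 ± 0.63), Ctla2a (-6.36 ± 0.80), the secreted glycoprotein Reln (-6.33 ± 0.85) and the chloride channel regulator Clca3a1 (-6.36 ± 1.05). The lower genes with both means over 6 included Mme, the surface protease CD10 that marks myoepithelial cells. Mme read 7.80, 8.26, 8.81, 9.48 and 4.06 in tumours and 13.11 to 13.79 in pools (-5.72 ± 0.86). Ecrg4, a secreted peptide precursor, varied most of these, with 9.38, 9.84, 5.79, 8.70 and 2.66 in tumours against 12.77 to 12.95 (-5.57 ± 1.52). Plekhb1 (-5.81 ± 1.45) and Samd4 (-5.45 ± 0.70) completed this set.

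The tumour-normal difference of this gate was set against that of the CD29+CD24+ gate of the same tumours and pools (5 and 3 arrays), a gate used for luminal cells. The test of the difference between gates called 5665 genes (42.0%), 3143 of which (23.3%) were also called in the CD29hiCD24+ contrast. Mmp2, Col5a2, Fhod3 and Id4 fell here and rose there. Id4, an inhibitor of DNA binding found in mammary stem cells, had means of 11.87 in tumours and 13.21 in pools in this gate and of 12.16 and 3.75 in the other (gate difference -9.75 ± 0.71, adjusted p = 1.67e-09). Its call in this gate did not hold without pool F (adjusted p = 0.0937), G (0.0872) or H (0.0926), or without tumour C (0.0874) or E (0.112). Col5a2, a fibrillar collagen, had 9.09 and 12.01 here and 9.62 and 2.62 there (-9.92 ± 0.71), and the actin organiser Fhod3 9.04 and 12.64 here and 8.84 and 2.59 there (-9.85 ± 0.91). For these 3 genes and Mmp2 the mean of normal CD29+CD24+ cells was the one far below the other 3 group means. Qsox1, a disulphide oxidase, rose here (3.38 ± 0.67) and fell there (-2.80 ± 0.67), as did Akr1c13, Steap1 and Ttc39a. Without pool F the rise of Steap1 (adjusted p = 0.0589) and of Ttc39a (0.193) in this gate was not called. Ccdc162 was raised only in pool G (5.18) among the 8 arrays, and was called neither without that pool (adjusted p = 0.64) nor with a replicate block (0.0609). The call was also lost without any 1 of the tumours (0.0666 to 0.0716), with averaged probe sets (0.0505) and with the 8 arrays alone (0.171). In the CD29+CD24+ gate Ccdc162 fell by more (-6.59 ± 0.45). Glycam1, a milk glycoprotein, read 9.35 in tumour A, 2.47 to 2.81 in the other tumours and 11.06 to 13.001 in pools (-8.25 ± 2.19, adjusted p = 0.00502). In the CD29+CD24+ gate the pools read only 2.45 to 2.53 for Glycam1. Which cells gave its signal in the CD29hiCD24+ pools was not tested.

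**Figure D4:**
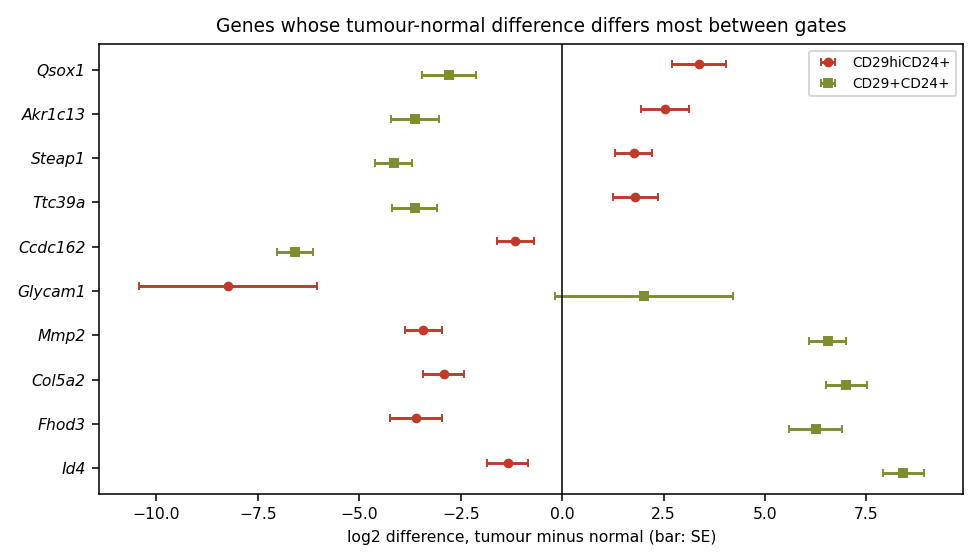
Log2 difference, tumour minus normal, with its standard error (x axis) for the 10 genes named for the largest difference between gates, in CD29hiCD24+ cells (red circles) and CD29+CD24+ cells (green squares). Mmp2, Col5a2, Fhod3 and Id4 lie below 0 in the first gate and between 6.24 and 8.41 in the second.

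The genes that varied most among the 5 tumours were secretory. The median SD over the 5 tumours was 0.33 per gene, against 0.27 over the 3 pools. Of the 10 genes with the largest SD 9 encode proteins of saliva and similar secretions or stand with them, and all 9 were highest in tumour C. They are Amy1 (salivary amylase), Pip, Bpifa2, Car6, Mucl2, Chia1, Scgb1b27, Scgb2b27 and 2310057J18Rik. Amy1 read 15.16 in tumour C, 2.80 to 3.20 in the other tumours and 4.77 to 6.40 in the pools, and Car6, the secreted carbonic anhydrase, 13.50 in tumour C and 2.04 to 2.17 in the other tumours. The mean of the 9 genes was 14.28 in tumour C, 3.79 in tumour B and 2.46 to 2.65 in the rest. The other array types of tumour C were as high, at 13.64 (Lin-) and 13.70 (CD29+CD24+), and those of tumour E reached 7.11 and 9.16 although its CD29hiCD24+ array stood at 2.65. The tenth gene, the casein gene Csn1s2a, read 13.41 in tumour A and 2.26 to 2.51 in the others. A mean over 6 milk protein genes was 10.42 in tumour A, 2.52 to 3.46 in the other tumours and 5.25 to 5.75 in the pools. In the pools only Csn3 (9.68 to 11.94) and Glycam1 (11.06 to 13) carried that mean. Csn1s1, Csn1s2a, Csn2 and Wap stood there at 1.97 to 2.66. Amy1, Car6 and Csn1s2a were not called between tumour and normal (adjusted p = 0.96, 0.534 and 0.539).

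**Figure D5:**
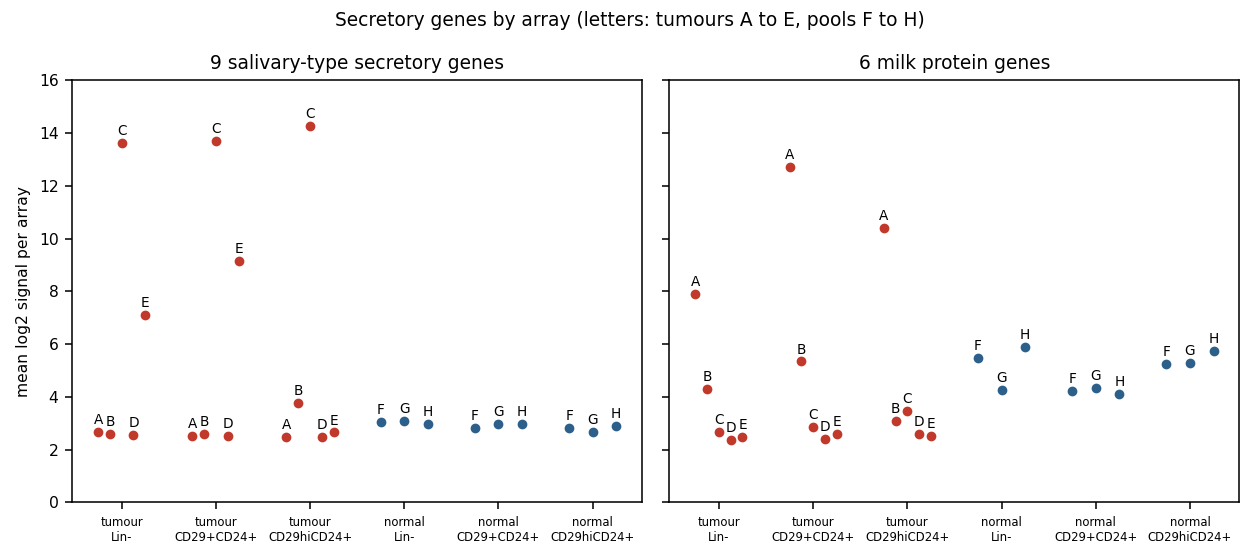
Mean log2 signal of 9 salivary-type secretory genes (left) and 6 milk protein genes (right) in each of the 24 arrays (y axis), by sorted population and tissue (x axis), with the letter of the tumour or pool. Tumour C lies at 13.64 to 14.28 on the left in all 3 populations, tumour E is raised in 2 of its 3, and tumour A is highest on the right in each.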

How the data were processed

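The deposited table holds log2 values per probe set for 24 arrays, made by the authors. The submitters' processing notes name RMA, GCRMA and Partek, with roles not given in the sources used here. Of 45101 probe sets, 24278 had 1 gene name and lay over the 40th percentile in at least 3 arrays, and the probe set of highest mean stood for its gene. The means of 6 groups were fitted over all 24 arrays with limma 3.58.1 (R 4.3.3, eBayes with a trend), which was tested on simulated data, with Benjamini-Hochberg adjustment over 13485 genes. Tests are two-sided. The members and lists were chosen with earlier results of these data known. Genes were named by rank (11 to 25 by difference without overlap, the 8 largest each way with both means over 6, the 5 largest gate differences each way, the 10 largest SDs among tumours, each leaving out keratin, cell cycle and endothelial genes) and by list (up to 3 called members each way and defining genes).

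Sample letters pair arrays of the same tumour or pool across gates. Deviations of same-letter arrays from their group means had a median correlation of 0.58 in tumours (lowest of 15 pairs 0.36) and 0.14 in pools (lowest of 9 pairs -0.04). No letter is shared by tumour and normal. The letter of pool H was inferred by elimination. Alternatives were quantile normalisation, no filter, averaged probe sets, the 8 arrays alone, replicate and description-number blocks, an actin covariate, no trend, and each replicate left out. In the description-number block only tumour E shares the number range of the pools, so its tumour-normal difference rests on that tumour. The number of arrays limits the precision.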

Additional observations from a re-analysis of the deposited data

Results flagged for a closer look

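Within the 5 tumours, 1 array lay apart from the other 4 by a gap that chance gives in about 1 in 20 groups. The gap was looked for in at least 267 named genes and 25 list means, without adjustment for that number. Some of these flags can therefore be due to chance. Tumour E was the low one for Tagln (3.78), Mylk (4.48), Cnn1 (2.15), Clca3a1 (4.48), Tgfbr3 (8.33), Apc (8.06), Il6 (7.25), Osmr (10.63) and Fabp4 (5.71) on the log2 scale. The array of tumour D lay apart for Pgm5 (3.70), Gucy1a1 (2.31), Frem2 (6.50), Gas1 (10.87), Hey1 (3.24) and Cdkn1a (14.19). Tumour A lay apart for Acvrl1 (3.20), Fdps (6.81), Ovol1 (9.60), Slc39a2 (5.52), Glycam1 (9.35), Csn1s2a (13.41) and the mean of the cholesterol synthesis list (8.01). Klk8 stood apart in tumour B (10.01), and Adcy3 (7.74), Kcnma1 (5.63) and Adamts4 (5.56) in tumour C. The secretory genes Mucl2 (15.62), Amy1 (15.16), Scgb1b27 (14.92), Pip (14.56), Bpifa2 (14.29), Car6 (13.50) and Chia1 (12.99) were high in tumour C. These genes and Csn1s2a had been named for their large SD among the same tumours, so their flags are no separate evidence.

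The tumour-normal difference differed between the CD29hiCD24+ and CD29+CD24+ gates for 10 named genes in limma's test of that difference. The value given is the CD29hiCD24+ difference minus the CD29+CD24+ difference, and its sign does not tell which was larger in size. It was positive for Qsox1 (6.18, adjusted p = 2.95e-05), Akr1c13 (6.16, 6.61e-06), Steap1 (5.92, 4.59e-07), Ttc39a (5.43, 1.64e-05) and Ccdc162 (5.43, 1.3e-06). The Ccdc162 difference was -1.15 in CD29hiCD24+, where it rested on pool G and its call was easily lost, and -6.59 in CD29+CD24+. The value was negative for Glycam1 (-10.25, 0.0113), Mmp2 (-9.97, 3.53e-10), Col5a2 (-9.92, 1.27e-09), Fhod3 (-9.85, 4.88e-08) and Id4 (-9.75, 1.67e-09).

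Salivary-type genes were also high in arrays outside the contrast. Their mean over 9 genes was 13.64 and 13.70 in the Lin- and CD29+CD24+ arrays of tumour C and 7.11 and 9.16 in those of tumour E, against at most 3.07 in normal arrays.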

How the results depend on the processing

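The counts of genes called stayed within 1.5 times under every alternative run, from 4300 with the 8 arrays alone to 6190 with the description-number block, and from 4414 to 5179 with 1 array left out. With letters as a replicate block 5244 genes were called in the main contrast and 6876 in the gate contrast, and among named genes that block changed only the calls of Apc and Ccdc162. Of 255 named genes called, each alternative lost between 1 (replicate block) and 13 (without pool G). List medians moved as follows. Without the low-value filter they were -2.76 for contractile genes, -0.047 for phosphodiesterases and cyclases, -0.16 for integrins, -0.074 for collagens, -0.17 for EGF, 0.52 for retinoid, 0.51 for defence and 0.13 for Klf genes, where more genes in the low band enter. With averaged probe sets they were -1.28 for phosphodiesterases and cyclases, -0.29 for integrins, -0.39 for EGF, 0.53 for retinoid, -0.997 for ribosome biogenesis and 0.65 for defence genes. After quantile normalisation they were -0.22 for integrins, -0.50 for EGF, -0.95 for ribosome biogenesis and 0.41 for serine genes. With the description-number block they were -1.13 for phosphodiesterases and cyclases, -2.02 for collagens, 0.69 for junctions, -0.49 for TGF-beta, -0.64 for cytokines, 1.59 for cholesterol synthesis, 0.73 for defence and 0.21 for Klf genes. With the actin covariate they were -0.16 for glycolysis, 0.41 for serine, 0.11 for protease and 0.77 for defence genes. With 1 array left out, medians ranged from -1.29 to -0.78 for phosphodiesterases and cyclases, -0.56 to -0.33 for integrins, -1.75 to -1.13 for collagens, -0.72 to -0.27 for EGF and 0.71 to 1.46 for defence genes. Signs reversed for 7 uncalled genes. With averaged probe sets the differences were 0.22 for Itga6, 0.050 for Gja1, 0.32 for Egfr, 0.064 for Slc2a1 and 0.27 for Vegfa. With the actin covariate they were -0.14 for Itgb1, 0.040 for Gja1, -0.16 for Ldha and 0.078 for Slc2a1. After quantile normalisation they were 0.15 for Egfr and 0.16 for Vegfa, and with 1 array left out they ranged from -0.0088 to 0.12 for Ldha and -0.24 to 0.12 for Vegfa. The cause was not tested. Values near the low band limit what differences can show.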
